A study of Mus musculus with 6 samples.

Results

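The 8 genes described here encode transcription factors of the enteroendocrine lineage, the hormone-secreting cells of the gut epithelium: Neurog3, Neurod1, Insm1, Fev, Pax4, Isl1, Nkx2-2 and Pax6. They were chosen by symbol, 8 of the 55335 genes counted, and each was read in 6 single-cell RNA libraries of mouse intestinal organoids. They were read over all cells, and again within the cells that held 5 or more UMIs (unique molecular identifiers, 1 per captured RNA molecule) of Chga plus Chgb, the chromogranins of hormone granules. That gate held 701 of 28379 cells kept, and its cells are called gated cells below.

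Intestinal organoids are epithelial cultures that grow from single stem or progenitor cells and form absorptive and secretory cells in vitro. The cultures came from wild-type C57BL/6 mice aged 8 weeks, of which the series names 2 in all. The protocol, which is the same text for all 6 libraries, gives EGF, Noggin and R-spondin in the medium. For the first 3 days it adds 20% Wnt3a-conditioned medium, 10 µM of the ROCK inhibitor Y-27632 and 3 µM of the GSK3 inhibitor CHIR99021, so the day-1 libraries were taken before these were withdrawn. Vitamin A-free medium is a label of 1 library, and the text does not say how else it differed. The day-4 cultures had 4 treatments, sampled 96 hours after they began and with renewal on day 3, in 1 library each. These were DMSO alone (the vehicle), 5 µM of an RXR antagonist, 10 µM of all-trans retinoic acid, and medium free of vitamin A. The retinoid X receptors (RXR) are nuclear receptors that pair with the retinoic acid receptors and others. The fifth group was the vehicle at day 1, after 24 hours, with 2 libraries that the labels do not tie to separate cultures. The labels name no compound for the antagonist, print "μm" for micromolar in both doses, and do not say whether the vitamin A-free cultures received DMSO.

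In the gut, Neurog3 is switched on in a progenitor that has escaped Notch signalling and commits it to the endocrine fate, and its own expression is brief. Insm1, Neurod1, Pax4 and Nkx2-2 are active in the steps that follow, and Fev, Isl1 and Pax6 are known from cells that are becoming or have become hormone producers. Within the lineage, enterochromaffin cells make serotonin with Tph1 and often the peptide Tac1, while other endocrine cells make cholecystokinin (Cck), ghrelin (Ghrl), GIP (Gip), glucagon-family peptides (Gcg), peptide YY (Pyy), neurotensin (Nts) or somatostatin (Sst).

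On the GRCm38 build, Neurog3 lies at chr10:62133090-62134763 on the plus strand, Insm1 at chr2:146221921-146225020 on the plus strand and Neurod1 at chr2:79452521-79456751 on the minus strand. Pax4 is at chr6:28442334-28449353 on the minus strand and Nkx2-2 at chr2:147177546-147194243 on the minus strand. Fev is at chr1:74881509-74885419 on the minus strand, Isl1 at chr13:116298281-116309689 on the minus strand and Pax6 at chr2:105668900-105697364 on the plus strand. Cerkl overlaps Neurod1 on the same strand, so reads in the shared stretch cannot be assigned with certainty to 1 of them.

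Neurog3 and Neurod1 are basic helix-loop-helix proteins, which bind E-box letters. The 250 bases before the RefSeq start sites (GRCm38.p6) were therefore searched, on both strands, for the letters CAGATG or CAGCTG. RefSeq windows were found for 6 of the 8 members, 7 windows in all, since Pax6 has a second start. Either motif was in 3 of the 7, against 25.5% of all 32851 windows of that length (14.4% for CAGATG and 13.0% for CAGCTG). The 3 windows are shown because they hold the motif next to genes whose levels are set side by side here; capitals mark the motif, the strand is that of the gene, and the last base is the one before the start.
Neurog3, chr10:62132840-62133089: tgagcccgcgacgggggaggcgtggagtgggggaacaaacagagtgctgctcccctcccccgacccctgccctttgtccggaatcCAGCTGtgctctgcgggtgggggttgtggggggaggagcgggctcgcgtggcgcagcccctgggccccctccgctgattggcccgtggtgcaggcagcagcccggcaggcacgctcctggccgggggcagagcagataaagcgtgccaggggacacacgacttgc
Nkx2-2, chr2:147186403-147186652: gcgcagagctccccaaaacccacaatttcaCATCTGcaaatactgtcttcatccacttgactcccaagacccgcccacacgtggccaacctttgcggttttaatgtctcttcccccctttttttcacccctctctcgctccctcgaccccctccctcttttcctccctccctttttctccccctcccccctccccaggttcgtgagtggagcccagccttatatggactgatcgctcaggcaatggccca
Isl1, chr13:116309689-116309938: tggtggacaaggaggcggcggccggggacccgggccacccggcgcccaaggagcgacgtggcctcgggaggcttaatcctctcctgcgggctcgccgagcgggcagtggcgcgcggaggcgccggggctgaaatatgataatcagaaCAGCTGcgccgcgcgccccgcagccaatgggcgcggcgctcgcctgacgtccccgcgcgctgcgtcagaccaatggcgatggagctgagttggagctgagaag
The motif starts 165 bases before the start site in Neurog3, 220 in Nkx2-2 (where CATCTG is CAGATG read on the other strand) and 103 in Isl1. No window held more than 1 of these motifs, so none overlap. The Nkx2-2 window lies inside the gene span given above, because RefSeq places this start downstream of the annotation's first one. The letters are a description of these windows, and no binding was measured.

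The libraries held 47258161 to 62567817 UMIs in 3468 to 5327 kept cells. Gated cells made up 1.04% of cells in the day-4 vehicle (48 cells, exact 95% interval 0.770% to 1.38%), 1.15% with the RXR antagonist (40 cells), 0.506% with retinoic acid (26 cells) and 1.32% in vitamin A-free medium (63 cells). At day 1 they were 2.80% (149 cells, 2.37% to 3.28%) and 7.38% (375 cells, 6.68% to 8.14%), so the 2 day-1 libraries differed from each other by more than counting error. Of 11 other granule and neuroendocrine genes, called other granule genes below, a gated cell held a median of 4 to 6. Among the 701 cells, 669 held 2 or more. Pcsk2, 1 of the 11, had no UMI in gated cells of any library. None of the 11 was found in 5 of 40 gated cells with the antagonist, in 0 of 48 in the vehicle, and in 1 to 4 cells in each other library. No barcode of a gated cell was shared between libraries. Gated cells were shallower than the other cells, with medians of 2515 to 7319.5 UMIs per library against 9978 to 13405.5. Their summed enterocyte markers were 17311 CPM (a gene's UMIs per 1000000 UMIs of the same cells) with retinoic acid, against 1847 to 7076 CPM in the other 5 libraries. Regenerative epithelium markers were 5236 CPM with the antagonist against 70.6 to 411 CPM elsewhere. Paneth markers were 1364 CPM with the antagonist, 656 and 898 CPM at day 1, and 3355 to 4724 CPM in the other 3 libraries. Stem cell markers were 92.5 CPM with the antagonist and 195 to 639 CPM elsewhere, while at most 2 of 6 tuft markers and 2 of 5 immune markers had any UMI in a library. In cells without Chga and Chgb UMIs, enterocyte markers were 114971 CPM with retinoic acid and 6382 to 47521 CPM elsewhere. Regenerative markers there were 6394 CPM with the antagonist and 33.3 to 1433 CPM elsewhere. Paneth and stem cell markers there were 305 and 105 CPM with the antagonist, against 372 to 1887 and 187 to 1333 CPM. The part of these other markers in the results below was not tested.

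The 8 genes divided by how far the gate held their RNA. Over all 6 libraries, the gate held 96.7% of Pax6 UMIs (357 of 369), 96.4% of Fev UMIs (758 of 786), 93.1% of Isl1 UMIs (590 of 634) and 88.1% of Neurod1 UMIs (1099 of 1247). It held 72.8% of Nkx2-2 UMIs (566 of 777), 68.3% of Pax4 UMIs (123 of 180), 52.9% of Insm1 UMIs (1107 of 2093) and 37.1% of Neurog3 UMIs (889 of 2397). By library, the share was 89.5% to 100% for Pax6, 83.3% to 98.9% for Fev and 73.7% to 96.4% for Isl1. For Neurog3 it was 28.5% to 39.5% in 5 libraries and 51.0% in day-1 library 2, and for Insm1 28.6% with retinoic acid to 70.4% in day-1 library 2. The late factors were thus mostly in chromogranin-rich cells in every library, and Neurog3 RNA mostly in cells with few or no chromogranin UMIs in 5 of 6. The order of the other genes changed between libraries.

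Levels were also read along steps of Chga plus Chgb. The mean Neurog3 level over the 6 libraries was 4.36 CPM in cells with none of these UMIs, 9.31 CPM with 1 to 4, 364 CPM with 5 to 19 and 384 CPM with 20 or more. Fev was at 0.0210, 2.19, 94.97 and 254 CPM along the same steps, and Pax6 at 0.0143, 0.378, 68.2 and 105 CPM. From 5 to 19 UMIs to 20 or more, Fev was higher in all 6 libraries and Pax6 in 4 of 6. Isl1 was also higher in the last step in 4 of 6, the day-4 libraries (149 to 190, 170 to 287, 38.9 to 125 and 113 to 167 CPM), and lower in both day-1 libraries (419 to 110 and 451 to 179 CPM). Nkx2-2 was higher in 2 of 6 and Neurog3 in 3 of 6. The step of 5 to 19 UMIs held 90 cells and that of 1 to 4 held 1399, of which the cells just below the gate form a part.

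**Figure D1:**
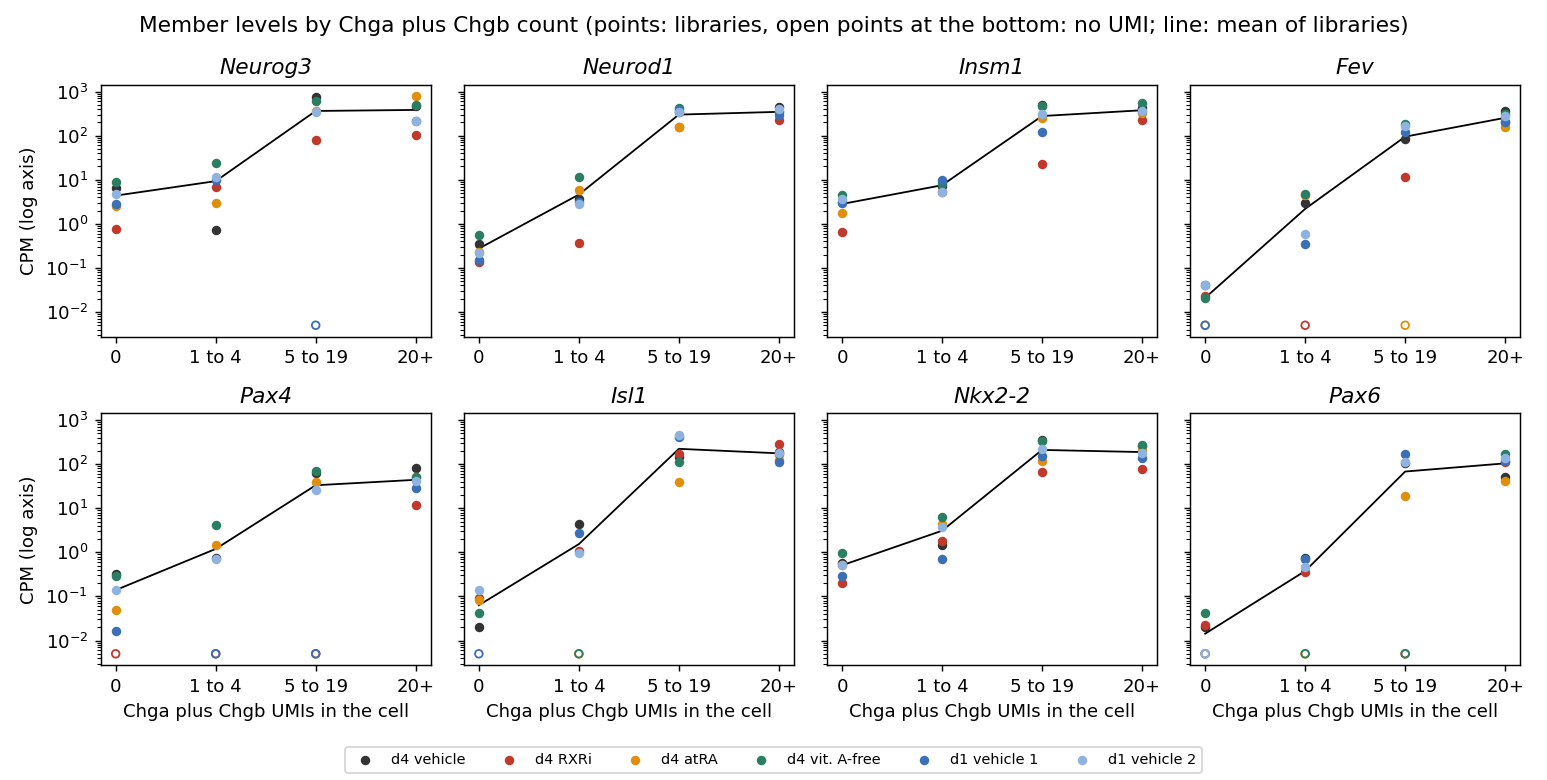
Level of each of the 8 factors (CPM, log axis) in cells grouped by their Chga plus Chgb UMIs (none, 1 to 4, 5 to 19, 20 or more). Small points are the 6 libraries and the line is their mean; Neurog3 stood at 4.36 CPM without chromogranin UMIs, Pax6 at 0.0143 CPM.

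Cells with 5 or more Neurog3 UMIs, a cut chosen after the values had been seen, numbered 178. Of these, 111 were outside the gate, 94 of them with no Chga or Chgb UMI, and 67 were inside. By library they numbered 33 in the day-4 vehicle, 6 with the antagonist, 17 with retinoic acid, 42 in vitamin A-free medium, and 24 and 56 at day 1. As shares of kept cells these are 0.717%, 0.173%, 0.331%, 0.881%, 0.451% and 1.10%, lowest with the antagonist. For each 100 gated cells, with those outside the gate counted too, they are 68.8, 15, 65.4, 66.7, 16.1 and 14.9. By that measure the antagonist library was near both day-1 libraries.

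The Neurog3-high cells outside and inside the gate held different sets of the other 7 factors. Those outside were deeper, with a median of 6683 against 3865 UMIs, so shares are given also thinned to 3000 UMIs a cell (104 and 51 cells stayed). Insm1 was in 88.3% of cells outside and 86.6% inside (77.5% and 77.2% thinned). Nkx2-2 was in 56.8% and 59.7% (35.4% and 57.2% thinned), Neurod1 in 35.1% and 83.6% (21.8% and 77.0%), and Pax4 in 20.7% and 40.3% (13.5% and 28.7%). By ratio of shares the late factors stood furthest apart, though in percentage points Neurod1 differed by more than Isl1 and Pax6. Fev was in 3.60% outside and 62.7% inside (2.09% and 53.2% thinned), and Isl1 in 2.70% and 23.9% (0.705% and 21.7%). Pax6 had no UMI in any of the 111 cells outside, which allows a share of cells with a UMI of up to 2.70%, and a UMI in 19.4% of those inside.

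Other genes set these cells apart as well. The Notch ligand Dll1 was in 49.5% outside and 1.49% inside (28.4% and 1.73% thinned), and the proliferation marker Mki67 in 29.7% and 1.49% (17.6% and 1.03% thinned). Dll4, another Notch ligand, was in fewer cells outside than inside, 14.4% and 20.9% (6.25% and 17.3% thinned). Sox4, a factor known from endocrine progenitors, was in 100% and 91.0%. Runx1t1, a corepressor, was also in fewer cells outside than inside, 18.9% and 65.7% (10.7% and 49.2% thinned).

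Neurog3, which starts the endocrine programme, was at 9.31 CPM over all cells of the day-4 vehicle, 1.82 CPM with the RXR antagonist, 4.03 CPM with retinoic acid, 13.0 CPM in vitamin A-free medium, and 4.49 and 11.4 CPM in day-1 libraries 1 and 2. The antagonist library was the lowest, with an exact interval (1.46 to 2.25 CPM) apart from all others. Retinoic acid (3.54 to 4.57 CPM) and day-1 library 1 (3.98 to 5.05 CPM) were neighbours with overlapping intervals, as were vitamin A-free medium (12.0 to 14.1 CPM) and day-1 library 2 (10.6 to 12.3 CPM). All intervals on UMIs here are exact Poisson intervals at 95% and cover counting error only, not the difference between cultures. They treat each UMI as independent, yet Neurog3 UMIs lay in few cells, 86 in 19 cells with the antagonist and 244 in 38 with retinoic acid. Which cells were captured is thus left out, so the intervals may be too narrow even for 1 culture.

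Insm1, a zinc-finger repressor induced downstream of Neurog3, was at 5.78, 2.20, 2.54 and 8.45 CPM in the 4 day-4 libraries in the same order, and at 5.69 and 13.1 CPM at day 1. The antagonist (1.80 to 2.67 CPM) and retinoic acid (2.16 to 2.98 CPM) were the low pair, with overlapping intervals. Neurod1, a helix-loop-helix factor downstream of Neurog3, was at 2.92, 1.69, 1.01 and 3.47 CPM at day 4 and 2.48 and 10.7 CPM at day 1. Its day-1 library 2 stood above every other library, and retinoic acid was lowest.

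Pax4, a paired-box repressor, was at 0.779, 0.0635, 0.182 and 0.833 CPM at day 4 and 0.192 and 1.25 CPM at day 1, from 3 to 74 UMIs a library. The 3 UMIs came from the antagonist library, so its value carries a wide interval (0.0131 to 0.186 CPM). Nkx2-2, a homeodomain factor, was at 2.14, 0.846, 0.991 and 3.19 CPM at day 4 and 1.31 and 5.58 CPM at day 1. The antagonist and retinoic acid libraries were again the 2 lowest, with overlapping intervals.

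Fev, an ETS factor also known as Pet1 and tied to serotonin neurons, was at 1.90, 1.18, 0.297 and 2.19 CPM at day 4 and 1.39 and 7.12 CPM at day 1. Isl1, a LIM homeodomain factor, was at 1.18, 2.03, 0.314 and 1.14 CPM at day 4 and 1.23 and 5.51 CPM at day 1. Pax6, a paired-box and homeodomain factor, was at 0.380, 0.656, 0.0826 and 0.975 CPM at day 4 and 0.927 and 3.51 CPM at day 1. For each of these 3, retinoic acid was lowest and day-1 library 2 highest. The antagonist library ranked second for Isl1, against last for Neurog3.

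**Figure D2:**
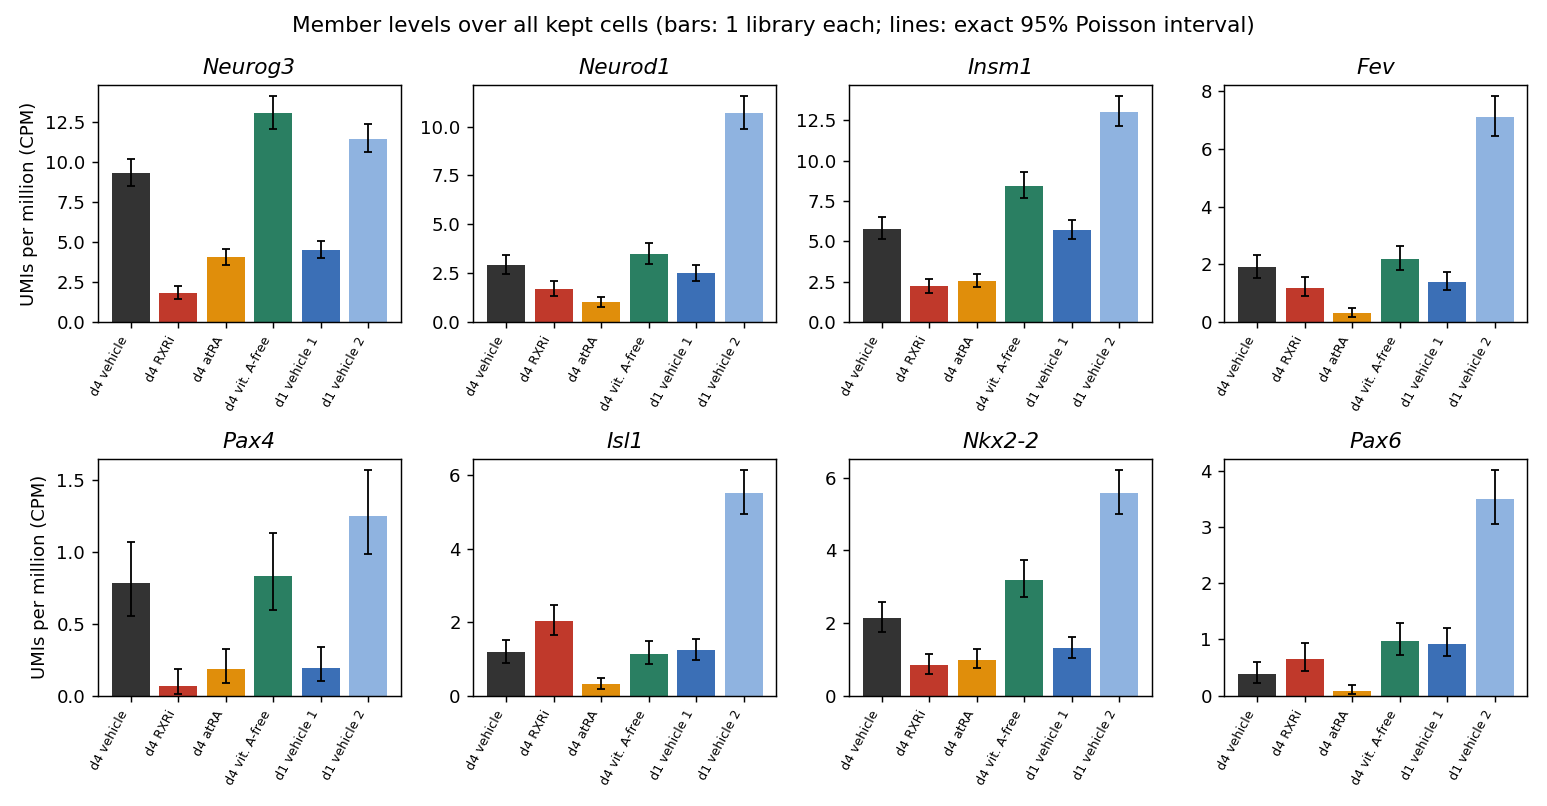
Level of the 8 factors over all cells (bars, CPM of summed UMIs, each panel on its own linear scale) in each of the 6 libraries, with exact 95% Poisson intervals; d4 and d1 are the days, RXRi the RXR antagonist and atRA retinoic acid. Retinoic acid is lowest for Neurod1, Fev, Isl1 and Pax6, and the RXR antagonist is lowest for Neurog3, Insm1, Pax4 and Nkx2-2.

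Levels over all cells move both with the number of endocrine cells and with the RNA of each, and these sums cannot tell them apart. The gate takes the first of these out in part. In gated cells Neurog3 was at 529 CPM in the day-4 vehicle, 98.2 CPM with the antagonist, 637 CPM with retinoic acid, 530 CPM in vitamin A-free medium, and 184 and 228 CPM at day 1. The antagonist library was the lowest in gated cells too (68.0 to 137 CPM), while the other 3 day-4 libraries had overlapping intervals and stood above both day-1 libraries. The cell with the most Neurog3 UMIs held 19 of 34 with the antagonist, 33 of 94 with retinoic acid and 16 of 150 in the vehicle. It held 24 of 183 in vitamin A-free medium, and 12 of 82 and 17 of 346 at day 1. The antagonist and retinoic acid levels thus rest most on 1 cell.

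A Neurog3 UMI was found in 54.2% of gated cells of the vehicle, 20.0% with the antagonist, 57.7% with retinoic acid, 44.4% in vitamin A-free medium, and 14.1% and 19.2% at day 1. Thinned to 3000 UMIs a cell, which left out the shallower cells (46, 37, 23, 55, 52 and 257 cells stayed), the shares were 47.1%, 13.2%, 47.7%, 40.6%, 4.87% and 13.0%. The order of high and low libraries was the same at that depth. Enterocytes were taken as cells with no Chga or Chgb UMI and 10 or more UMIs of Apoa1, Apoa4, Fabp2 and Sis together. That rule leaves out every cell with a chromogranin UMI. Their median depths were 10198 to 15835 UMIs by library. The share of them with a Neurog3 UMI was at most 0.575%, and for the other 7 factors at most 0.671%.

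Gated Insm1 was at 437, 173, 298 and 538 CPM at day 4 (vehicle, antagonist, retinoic acid and vitamin A-free, in that order) and 332 and 360 CPM at day 1. Gated Neurod1 was at 437, 211, 291 and 356 CPM at day 4 and 308 and 395 CPM at day 1. In both, the antagonist library was lowest, and the 2 day-1 libraries lay within the range of the day-4 libraries.

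Gated Pax4 was at 77.6, 8.67, 47.4 and 55.0 CPM at day 4 and 24.7 and 40.3 CPM at day 1, on 3 to 61 UMIs. Gated Nkx2-2 was at 272, 75.1, 176 and 289 CPM at day 4 and 142 and 181 CPM at day 1. Both were lowest with the antagonist, and vehicle and vitamin A-free medium had overlapping intervals.

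Gated Fev was at 314, 159, 102 and 284 CPM at day 4 and 193 and 274 CPM at day 1. Gated Isl1 was at 183, 257, 94.8 and 156 CPM at day 4 and 155 and 206 CPM at day 1. Gated Pax6 was at 59.98, 83.8, 33.9 and 133 CPM at day 4 and 126 and 135 CPM at day 1. These 3 were lowest with retinoic acid, on 5 to 15 UMIs there, and the antagonist library was highest for Isl1.

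**Figure D3:**
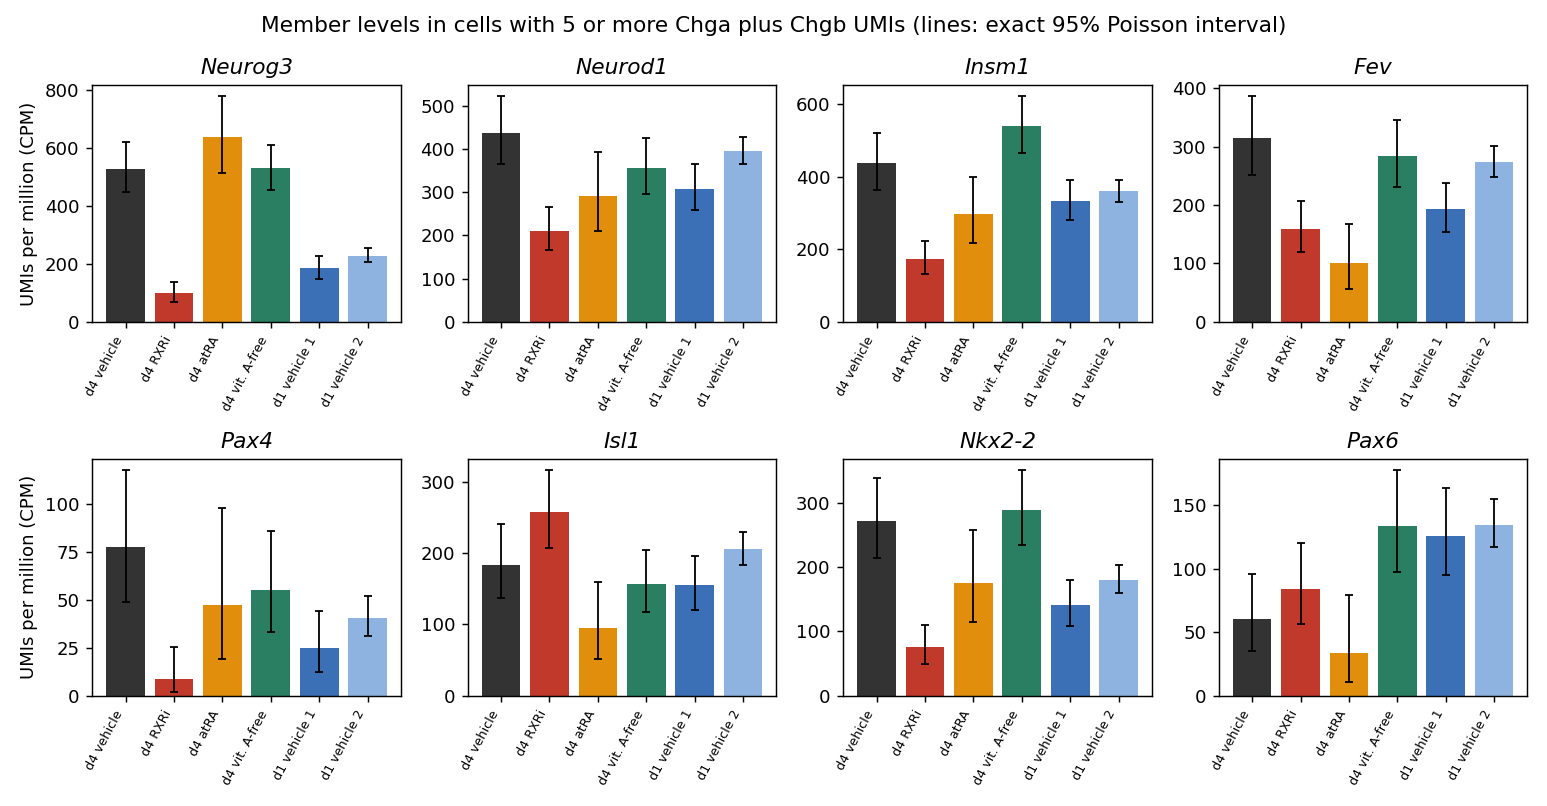
Level of the 8 factors within gated cells (bars, CPM of summed UMIs, each panel on its own linear scale) in each of the 6 libraries, with exact 95% Poisson intervals and the same library names. The RXR antagonist is lowest for Neurog3, Neurod1, Insm1, Pax4 and Nkx2-2, and retinoic acid for Fev, Isl1 and Pax6.

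The RXR antagonist was set against the day-4 vehicle to ask what blocking RXR does to the culture. Over all cells, Neurog3 was 5.12-fold lower (exact interval of the ratio 4.06 to 6.52), Insm1 2.62-fold lower (2.09 to 3.32) and Nkx2-2 2.53-fold lower (1.74 to 3.73). Neurod1 was 1.72-fold lower (1.30 to 2.29) and Fev 1.60-fold lower (1.14 to 2.27), whereas Isl1 was 1.72 times the vehicle level (1.23 to 2.42). With 1 library a group there is no test, and a gene is counted by size alone, at 2-fold, where 1 of the 2 libraries reached 1 CPM (or 20 UMIs in gated cells). A gene that reached the floor only in the library where it is high entered the count through that high value. These counts, here and for the lists below, are therefore descriptions that support nothing. By that rule 3 of the 6 members past the floor were lower, against 14.2% of 12844 genes, and 0 were higher, against 10.6%. Of those 3, Nkx2-2 reached 1 CPM only in the vehicle; with the floor in both libraries 2 of 5 were lower. The median log2 ratio of all 8 members, with no floor, was -1.06, beside -0.03 over all genes past it. Neither Pax4 nor Pax6 reached the floor. Pax4 with 3 against 39 UMIs had a ratio of 12.3-fold lower (3.90 to 62.1), and Pax6 with 31 against 19 UMIs was at 1.73 times the vehicle (0.946 to 3.24).

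Within gated cells Neurog3, Nkx2-2, Insm1, Neurod1 and Pax4 were again lower with the antagonist. Beside them, 4 of 5 Paneth markers (median log2 ratio -3.99) and 4 of 4 stem cell markers (median -2.55) past the floor were 2-fold lower in the same cells, and 5 of 5 regenerative markers higher. Their part was not tested. Neurog3 was 5.39-fold lower (3.69 to 8.06), Nkx2-2 3.62-fold lower (2.29 to 5.88), Insm1 2.52-fold lower (1.84 to 3.49) and Neurod1 2.07-fold lower (1.54 to 2.81). Pax4, with 3 against 22 UMIs, had a ratio of 8.95-fold lower (2.69 to 46.7). Fev was 1.98-fold lower (1.40 to 2.82), just short of the 2-fold rule. Isl1 and Pax6 were both at 1.40 times the vehicle, with intervals of 0.985 to 2.01 and 0.742 to 2.71 that include 1. By size 5 of 8 members were at least 2-fold lower, against 11.8% of 3607 genes, and 0 were higher, against 7.98%. Pax4 reached 20 UMIs only in the vehicle; with the floor in both libraries 4 of 6 were lower. The members' median was -1.19 and that of all genes -0.17. With TMM scaling the gated genes past 2-fold split into 355 higher and 302 lower, in place of 288 and 424, and 4 members were 2-fold lower, since the log2 ratio of Neurod1 became -0.87. A condition added after the data had been seen asked for 2 or more other granule genes in a gated cell. Under it 5 members were again lower, beside 406 of 3151 genes, and Neurog3 had a log2 ratio of -2.55.

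Genes known to work beside the 8 factors differed unevenly in that comparison. Of 20 other endocrine transcription factors, 12 passed the floor over all cells, 4 of them 2-fold lower and 1 higher; in gated cells 9 passed, 4 lower and 0 higher. Their median log2 ratios were -0.33 and -0.85, beside -0.03 and -0.17 over all genes. Sox4 was at 30.6 against 160 CPM over all cells, 5.21-fold lower, and 5.56-fold lower in gated cells. Of 8 Notch and secretory-fate genes all passed, with 3 lower and 0 higher (median 0.14), among the lower ones Dll1 at 1.74 against 16.8 CPM. Of 19 granule and neuroendocrine genes, 2 of 17 were lower and 3 higher over all cells (median 0.00). Gfra3, a receptor of endocrine progenitors and cells, was 3.11-fold lower, and the granule gene Resp18 4.81-fold higher. Of 14 hormone genes, 4 of the 10 past the floor were higher and 1 lower (median 0.65). Gcg was 8.52-fold higher, and Nts had 1005 against 5 UMIs.

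Retinoic acid was set against the same vehicle library, which all 3 day-4 comparisons share. Over all cells Fev was 6.39-fold lower (3.83 to 11.2), Isl1 3.76-fold lower (2.21 to 6.68), Neurod1 2.90-fold lower (2.13 to 3.97), Neurog3 2.31-fold lower (1.98 to 2.71), Insm1 2.27-fold lower (1.86 to 2.78) and Nkx2-2 2.16-fold lower (1.56 to 3.01). That is 6 of 6 members past the floor, against 15.9% of 12408 genes, and 0 higher, against 3.88%. Fev, Isl1 and Nkx2-2 reached 1 CPM only in the vehicle; with the floor in both libraries 3 of 3 were lower. The median log2 ratio was -1.72 for all 8 members with no floor and -0.38 for all genes past it. That shift of all genes was gone under TMM scaling (-0.02), where 3 of the 6 members were 2-fold lower and all genes split into 835 higher and 938 lower, in place of 482 and 1979. Below the floor, Pax4 was 4.29-fold lower (2.16 to 9.29) and Pax6 4.60-fold lower (1.66 to 15.8).

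Within gated cells, 26 of them in the retinoic acid library, the ratios were nearer to 1. Neurog3 was at 1.20 times the vehicle level (0.920 to 1.57), with 33 of its 94 UMIs in 1 cell. Insm1 was 1.47-fold lower (1.03 to 2.12), Neurod1 1.502-fold lower (1.05 to 2.18) and Nkx2-2 1.54-fold lower (0.978 to 2.51). Fev stood 3.09-fold lower (1.78 to 5.75), the 1 member of 7 past the 20-UMI floor counted as lower, against 9.91% of 3006 genes, with 0 higher, against 2.93%. Isl1 was 1.93-fold lower (1.06 to 3.78) and Pax4 1.64-fold lower (0.675 to 4.54). Pax6, with 5 against 17 UMIs, did not reach the floor. Fev reached 20 UMIs only in the vehicle, and with the floor in both libraries 0 of 4 members were 2-fold apart. The median of all 8 members with no floor was -0.67 and that of all genes -0.09. The enterocyte markers in these 26 cells were at 17311 CPM against 1937 CPM in the vehicle's gated cells.

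The other lists were also mostly lower with retinoic acid over all cells. Other endocrine factors were lower for 8 of 10 past the floor, granule genes for 12 of 15 with 1 higher, hormones for 6 of 8, and Notch and secretory-fate genes for 4 of 7. The medians of these 4 lists were -1.18, -1.65, -2.53 and -1.05, beside -0.38 over all genes. Runx1t1 was 3.03-fold lower, Sox4 3.45-fold lower, Dll1 2.07-fold lower and Hes1, the Notch-induced repressor, 3.20-fold lower. In gated cells 2 of 9 other factors and 7 of 9 hormones were lower, with medians of -0.47 and -1.32 beside -0.09. Cck was 3.73-fold lower there and Pyy 3.07-fold higher.

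Vitamin A-free medium gave levels near the vehicle for these factors. Over all cells Neurog3 was at 1.40 times the vehicle (1.24 to 1.58), Insm1 at 1.46 times (1.26 to 1.71) and Nkx2-2 at 1.49 times (1.16 to 1.92). By size 0 of the 6 members past the floor were 2-fold higher, against 1.62% of 12625 genes, and 0 lower, against 0.61%. The median was 0.37 for the members and 0.12 for all genes, and TMM scaling brought the latter to 0.00 and the split of all genes from 205 higher and 77 lower to 139 and 119. Neurod1 was at 1.19 times the vehicle, Fev at 1.16, Isl1 at 0.965 and Pax4, on 41 against 39 UMIs, at 1.07. Pax6, under the floor with 48 against 19 UMIs, was at 2.57 times the vehicle (1.48 to 4.63).

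In gated cells of that library Neurog3 was at 1.00 times the vehicle level (0.802 to 1.25), and Neurod1, Insm1, Fev, Pax4, Isl1 and Nkx2-2 lay between 0.709 and 1.23 times. Pax6 was at 2.22 times (1.25 to 4.13), 46 against 17 UMIs, the 1 member of 8 counted as higher, against 2.85% of 3818 genes, with 0 lower, against 1.7%. Pax6 reached 20 UMIs only in the vitamin A-free library, and with the floor in both 0 of 6 members were 2-fold apart. The Pax6 call was also lost without the removal of doublets, with equal weight per cell and with a gate of 3 UMIs. At a floor of 50 UMIs its 46 and 17 UMIs left it out of the count. Among 20 other endocrine factors, 15 passed in gated cells, with 2 higher and 0 lower (median 0.37, beside 0.04 over all genes). They were Pdx1, with 20 against 3 UMIs, a ratio of 5.47 (1.62 to 28.7), and Rfx3, 2.01-fold higher on 27 against 11 UMIs, with an interval (0.967 to 4.50) that includes 1. Both reached 20 UMIs only in the vitamin A-free library. Of 11 hormones 3 were higher and 3 lower (median -0.15). Over all cells 0 of 12 other endocrine factors passed 2-fold (median 0.50).

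**Figure D4:**
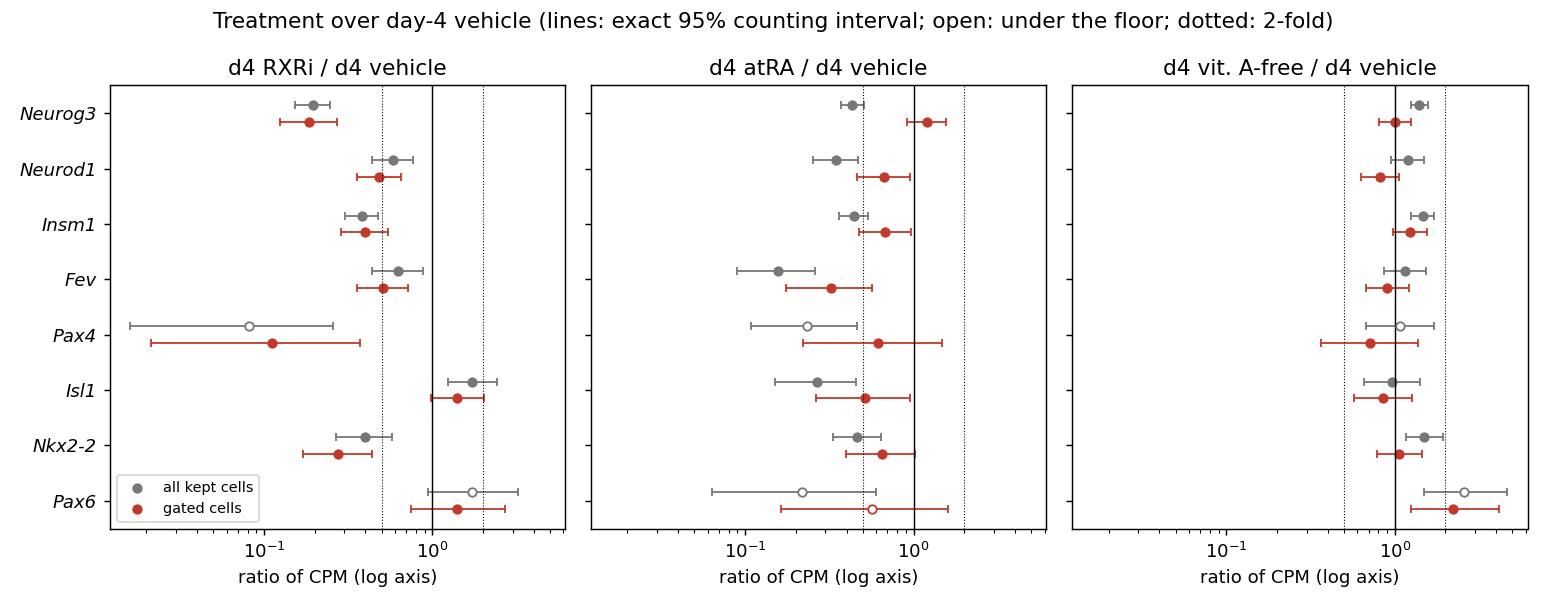
Ratio of each factor's CPM to the day-4 vehicle (log axis, 1 panel per treatment), over all kept cells in grey and in gated cells in red, with exact 95% intervals for counting error; open points are under the floor and dotted lines mark 2-fold. With the antagonist Neurog3 lies 5.12-fold and 5.39-fold under the vehicle, and with retinoic acid it is 2.31-fold lower over all cells and at 1.20 times the vehicle in gated cells.

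Day 4 was set against day 1 in vehicle cultures, with 1 library against 2, by edgeR's quasi-likelihood test with Benjamini-Hochberg adjustment over all genes tested. Over all cells 0 of 8 members passed at 0.05, where 17.3% of 17592 genes were higher at day 4 and 16.9% lower. At an unadjusted p under 0.05 there was 1 member, Pax6, with a log2 change of -2.36 (SE 0.87, edgeR adjusted p = 0.0846); DESeq2 called it, with an adjusted p of 0.0266, and no other member. The direction of most others rested on the day-1 library. As a plain log2 ratio of CPM, without TMM scaling, Neurog3 was at -0.30 without day-1 library 1 and at 1.05 without library 2. For Fev the 2 values were -1.91 and 0.45.

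Within gated cells, edgeR called Neurog3 higher at day 4 and Pax6 lower, and DESeq2 called neither. Neurog3 was at 529 CPM at day 4 against 184 and 228 CPM, a log2 change of 1.16 (SE 0.19, edgeR adjusted p = 6.95e-08). Pax6 was at 59.98 CPM against 126 and 135 CPM, a log2 change of -1.29 (SE 0.33, edgeR adjusted p = 0.00242). These are 1 of 8 members higher, where 4.0% of 7596 genes were, and 1 lower, where 4.46% were. The DESeq2 adjusted p was 0.0611 for Neurog3 and 0.665 for Pax6, and Pax6 also missed the threshold without the removal of doublets (log2 change -0.61, edgeR adjusted p = 0.342). The 2 day-1 samples are not known to be separate cultures, and the only spread between libraries in the test is that between them, which may be technical. edgeR moderates that spread over all genes tested, so a p-value does not rest on the gene's own spread alone. With 1 library at day 4, no spread between day-4 cultures enters the test. Markers of other cell types moved in the same cells. Of those tested, 4 of 5 Paneth, 3 of 4 goblet and 2 of 5 stem cell markers were higher at day 4. The other goblet marker and 6 of 7 enterocyte markers were lower. Their part was not tested.

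The other 6 members did not pass that test. Pax4 had a log2 change of 0.96 (SE 0.39, edgeR adjusted p = 0.119) and Nkx2-2 of 0.55 (edgeR adjusted p = 0.112). Those of Neurod1, Insm1, Fev and Isl1 were 0.13, 0.17, 0.21 and -0.19. Of the 16 other endocrine factors tested in gated cells, 1 was higher and 2 lower at day 4 (median -0.17). Sox4 rose by 0.88 (edgeR adjusted p = 5.00e-06), and Etv1 and the pancreatic and duodenal factor Pdx1 fell by 1.21 and 2.24. Of 13 hormone genes 1 rose and 9 fell, among them Cck, with a log2 change of -2.74.

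The mix of hormone cells differed between the days. Gated cells with 3 or more UMIs of Tac1 plus Tph1 formed 1 class, and the others were classed by the hormone gene with the most UMIs, at least 3. Of the 701 cells, 353 were Tac1 or Tph1 cells, 168 Cck cells, 68 Ghrl cells and 81 reached 3 UMIs of none and were left unclassed; 13 Gcg, 10 Gip, 4 Sst and 4 Nts cells were too few to describe. Cck cells made up 47 of 149 and 102 of 375 gated cells at day 1 and 4 of 48 in the day-4 vehicle. Within Tac1 or Tph1 cells, Neurog3 was at 452 CPM in the day-4 vehicle (23 cells, 347 to 578 CPM) and 347 and 350 CPM at day 1 (79 and 189 cells), a narrower gap than over all gated cells. Cck cells at day 1 had 12.3 and 9.16 CPM, from 2 and 5 UMIs, and the 4 Cck cells of the day-4 vehicle 749 CPM, from 12 UMIs in 1 cell. The part of this mix in the day difference was not tested.

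With the antagonist, Neurog3 was low within Tac1 or Tph1 cells as well, at 29.1 CPM (22 cells and 6 UMIs, 10.7 to 63.4 CPM). Nkx2-2 was at 38.8 CPM there, against 192 to 210 CPM in the other 5 libraries. Isl1 in these cells was at 28.7 CPM in the vehicle, 141 CPM with the antagonist, 92.2 CPM with retinoic acid, 105 CPM in vitamin A-free medium, and 9.38 and 19.9 CPM at day 1. This class was set by Tac1 plus Tph1, whatever other hormones a cell held. Gated cells held 18635 Cck UMIs with the antagonist and 3444 in the vehicle, with 4 cells classed as Cck in each library. Cells of the class may thus differ in other hormones between libraries, and the part of this was not tested.

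The hormone classes differed in which factors they carried, as a description of cells pooled over libraries. Isl1 had a UMI in 82.4% of Ghrl cells, 60.7% of Cck cells and 7.93% of Tac1 or Tph1 cells; thinned to 3000 UMIs (50, 145 and 188 cells stayed) the shares were 72.7%, 45.8% and 9.79%. Cells of the Ghrl and of the Cck class were each above Tac1 or Tph1 cells in all 6 libraries. In Tac1 or Tph1 cells the share was 13.0%, 31.8%, 11.1% and 25.8% at day 4 and 1.27% and 4.23% at day 1. Ghrl cells were above Cck cells in 4 of 6 libraries, with 75.0% against 48.9% and 86.7% against 64.7% at day 1, and below them in vitamin A-free medium, on 3 to 11 Ghrl and 4 to 6 Cck cells per day-4 library. Fev went the other way, with 66.9% of Tac1 or Tph1 cells, 48.5% of Ghrl cells and 42.3% of Cck cells (59.5%, 46.5% and 31.3% thinned), and Tac1 or Tph1 cells were above Ghrl cells in all 6 libraries and above Cck cells in 5 of 6. Neurog3 was in 46.9% of unclassed cells, 44.1% of Ghrl cells, 26.6% of Tac1 or Tph1 cells and 4.17% of Cck cells (45.2%, 37.6%, 22.9% and 4.48% thinned). These pooled shares weigh the days unequally, since 149 of the 168 Cck cells are from day 1. Within libraries, unclassed cells were above Cck cells in 6 of 6 and Tac1 or Tph1 cells above Cck cells in 5 of 6, while in day-1 library 1 Neurog3 was in 0 of 8 Ghrl cells and 24.1% of Tac1 or Tph1 cells.

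Pax4 was in 29.6% of unclassed cells, 16.4% of Tac1 or Tph1 cells, 5.88% of Ghrl cells and 5.36% of Cck cells (26.4%, 13.1%, 6.84% and 3.83% thinned); Tac1 or Tph1 cells were above Ghrl cells in 6 of 6 libraries and above Cck cells in 5 of 6, and unclassed cells above Tac1 or Tph1 cells in 4 of 6. Pax6 was in 45.8% of Cck cells, 33.8% of Ghrl cells, 21.5% of Tac1 or Tph1 cells and 14.8% of unclassed cells (35.0%, 28.8%, 21.1% and 12.3% thinned), with Cck cells above Tac1 or Tph1 cells in 5 of 6. Nkx2-2 was in 73.5% of Ghrl cells and 39.3% to 48.1% of the other 3 classes (63.7% and 27.9% to 45.4% thinned). Neurod1 was in 60.3% of Tac1 or Tph1 cells and 70.4% to 86.8% of the others (56.4% and 60.4% to 74.0% thinned). For both, Ghrl cells were above Tac1 or Tph1 cells in 6 of 6 libraries. For Neurod1, unclassed cells were above Tac1 or Tph1 cells in 3 of 6. Pooled Insm1 was between 66.2% and 70.4% in the 4 classes, without a common order by library. Thinned, its shares were further apart, from 55.6% in Cck cells to 68.1% in unclassed cells. Median depths were 3181 UMIs for Tac1 or Tph1 cells, 4716 for Cck cells, 3951.5 for Ghrl cells and 3677 for unclassed cells.

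**Figure D5:**
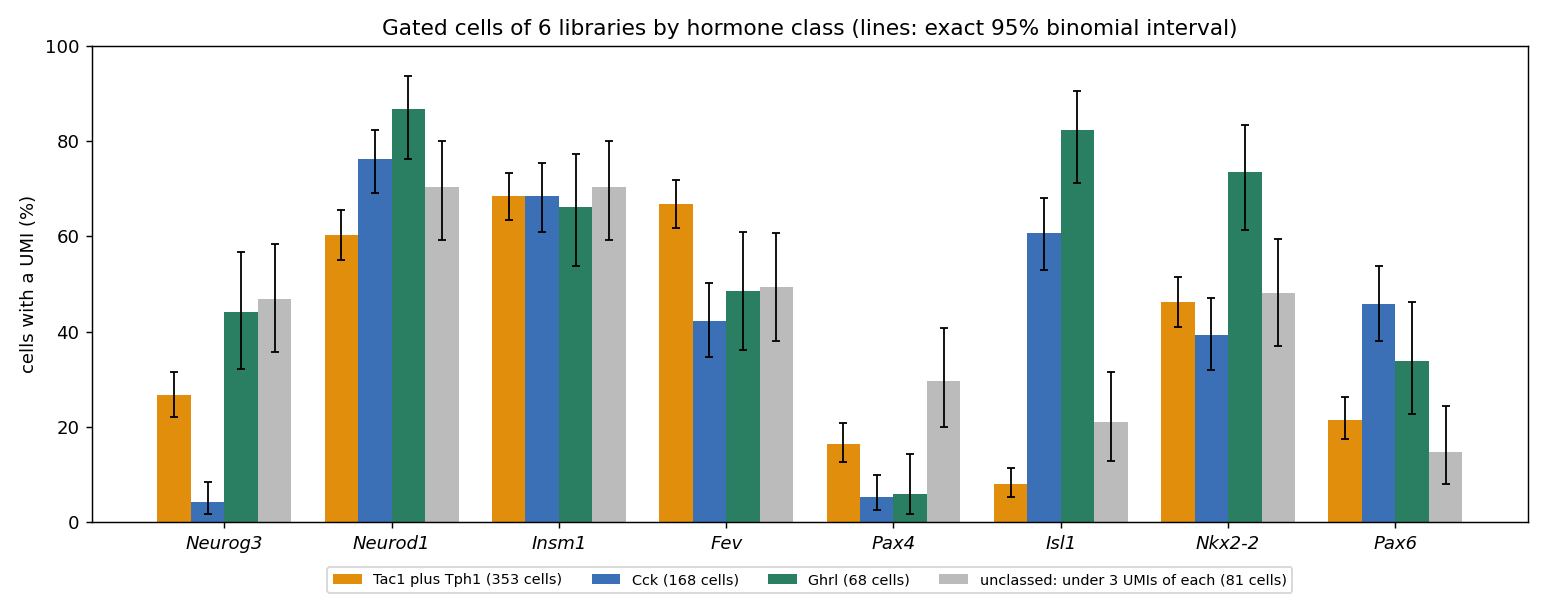
Share of gated cells with at least 1 UMI of each factor (percent) in Tac1 or Tph1, Cck, Ghrl and unclassed cells, with exact 95% binomial intervals that cover counting error only. Pooled over libraries, Isl1 runs from 7.93% to 82.4% across classes and Insm1 from 66.2% to 70.4%. The shares shown are not thinned. Thinned to 3000 UMIs a cell, Insm1 runs from 55.6% to 68.1%.

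Most gated cells held several of the factors. At least 1 was found in 681 of 701 cells (97.1%) and 4 or more in 335 (47.8%); no cell held all 8, and 10 held 7. The mean number per cell was 4.48 in the day-4 vehicle, 3.30 with the antagonist, 3.65 with retinoic acid, 4.19 in vitamin A-free medium, and 2.56 and 3.42 at day 1, where cells were shallowest.

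Of the 95 gated cells with Pax4, 58.9% (48.4% to 68.9%) also had Neurog3, against 18.8% (15.8% to 22.2%) of cells without Pax4. Of the 222 with Isl1, 45.9% (39.3% to 52.7%) had Pax6, against 21.3% of those without, and 6.76% had Pax4, against 16.7%. Of cells with Fev 26.6% had Isl1, against 38.2% of cells without. Within libraries, each of the pairs Pax4 and Neurog3, Isl1 and Pax6, and Fev and Isl1 held its direction in 5 of 6, and Isl1 and Pax4 in 6 of 6. These shares were not thinned.

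Across gated cells of the 3 libraries with at least 50 of them (587 cells), log-scaled levels were correlated within each library and averaged, over 8063 genes. Such correlations share each library's depth and carry no test. Neurog3 was closest to Tubb3 (mean Pearson r = 0.424), Gspt1 (0.403) and Pax4 (0.399, from 0.256 to 0.578 by library). Isl1 was closest to Scgn, a calcium-binding protein of endocrine cells (0.622, from 0.576 to 0.672), then Ghrl (0.513) and Tff3 (0.464). Fev was closest to Chgb (0.361, a gene the gate itself used), Tac1 (0.342) and Vim (0.333), and Pax6 to Fabp5 (0.353). Between members the values were 0.262 for Isl1 and Pax6, -0.229 for Fev and Isl1, and -0.181 for Neurog3 and Isl1. For Insm1 the closest gene was Neurog3 (0.253), for Neurod1 Rnase1 (0.231) and for Nkx2-2 Chga (0.261, also a gate gene), all weak in counts this sparse.

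Across the 6 library sums the gene most like Neurog3 was Dusp16 (Pearson r = 0.99, n = 6 libraries, among 11641 genes). The nearest genes were Acsl6 for Neurod1, Igfbp2 for Insm1, Neurod1 for Fev, Pnmal2 for Pax4, Tesc for Isl1, Tubb3 for Nkx2-2 and Pappa2 for Pax6. With 6 points, 27 to 150 genes per member passed 0.9, so these names single out little.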

How the data were processed

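Organoid cells were sorted against debris and dead cells before 3′ droplet libraries were made, per the labels' protocols. Cell Ranger 3.1.0, bcl2fastq 2.17 and the build GRCm38 are listed in the submitters' processing notes. The deposited values are UMI counts per gene and cell, made by the authors, with no normalization. No barcode failed a filter of 500 genes, 1000 UMIs and at most 20% mitochondrial UMIs. Because Scrublet's own threshold marked 0 to 67 barcodes a library, the top scores were taken out as doublets instead, 0.8% for each 1000 barcodes (2.86% to 4.47% a library).

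The 8 members, the gene lists and the named-gene rules were chosen with earlier results of these data known. Counts were summed per library over all kept cells and over gated cells and divided by the library's sum (CPM). Depth was 47258161 to 62567817 UMIs a library over all cells and 147653 to 1515031 in gated cells. Treatment groups have 1 library each, so ratios carry exact conditional binomial intervals (95%) and no test. Shares carry Clopper-Pearson intervals. Thinned shares are hypergeometric expectations. Named were all 8 members, up to 4 genes of each list with the largest ratios, and the 3 genes most like each member. Only some of these are printed. Day 4 was tested against day 1 with edgeR 4.0.16 (TMM, filterByExpr, quasi-likelihood, Benjamini-Hochberg over all genes tested) in R 4.3.3. The test was checked on simulated data. DESeq2 1.42.0, other scalings, gates, floors and no removal of doublets were alternatives. Cells were handled with scanpy 1.11.5 and scipy 1.17.1. Of the gene IDs, 54587 of 55335 matched the GENCODE annotation used for positions.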

Additional observations from a re-analysis of the deposited data

How the results depend on the processing

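With 1 library per treatment, intervals cover counting error only. Those on UMIs and ratios also treat the UMIs of a cell as independent. With 26 to 63 gated cells per day-4 library, ratios of Pax4 and Pax6 are the least precise. Of 264 member ratios to the vehicle under alternatives, 258 kept their direction and size, 6 moved and 0 reversed; of 136 day changes of members, 119 kept both, 10 moved, 3 were weaker, 1 stronger and 3 reversed. With the RXR antagonist over all cells, 3 members were 2-fold lower, beside 1821 of 12844 genes, and 5 were 1.5-fold lower, beside 2942. In the other direction 0 members were 2-fold higher and 1 was 1.5-fold higher, beside 1361 and 2398 genes. No member reached a floor of 10 CPM in the vehicle, antagonist or retinoic acid library, so that alternative could count none for these 2 treatments. With retinoic acid over all cells 6 members were 2-fold lower, beside 1979 of 12408 genes. Under TMM or DESeq2 factors 3 were, beside 938 or 895 genes. In gated cells 1 member was lower, beside 298 of 3006 genes, and 5 were at 1.5-fold, beside 629. Without removal of doublets 3 members were lower, beside 337 of 3589 genes. With a gate that asks for 2 other granule genes, added after the data had been seen, 2 were, beside 302 of 2688. In vitamin A-free medium 0 members were higher over all cells, beside 205 of 12625 genes. Without removal of doublets 1 was, beside 220 of 12671, and with no floor 1 was, beside 4883 of 26443. In gated cells 1 member, Pax6, was higher, beside 109 of 3818 genes. Without removal of doublets the count was 0 (126 of 4823 genes), as with equal weight per cell (110 of 3818). With a gate of 3 UMIs it was 0 too (122 of 4501). A floor of 50 UMIs also gave 0 (10 of 1406), but Pax6, on 46 against 17 UMIs, could not enter that count. For day 4 against day 1 over all cells, 6019 genes were called by edgeR and 3971 with no filter, and members lower were 0, and 1 by DESeq2. In gated cells 643 genes were called, 99 by DESeq2, 382 without removal of doublets and 386 with the added gate; the 1 member higher became 0 by DESeq2, and the 1 lower became 0 by DESeq2 and without removal of doublets. Reversed gated day changes (log2) were -0.0728 for Neurod1 and -0.0173 for Insm1 with a gate of 3 UMIs and 0.37 for Isl1 without removal of doublets; the cause was not tested. Leaving out 1 day-1 library left no residual degrees of freedom, so those values carry no test. They are plain log2 ratios of CPM without TMM scaling, so they are not on the scale of the fitted changes. Gated Neurog3 was then 1.21 or 1.52 and gated Pax6 -1.17 or -1.07. No paired analysis was possible because the groups compared share no more than 1 replicate number.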
